A study of Homo sapiens with 12 samples.

Results

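The LAPTM family of lysosome-associated transmembrane proteins has 3 human members, LAPTM5, LAPTM4A and LAPTM4B. They span the membrane of late endosomes and lysosomes several times and carry short proline-tyrosine motifs that bind ubiquitin ligases of the NEDD4 family, which mark cargo for transport to the lysosome. LAPTM5 is known from blood cells, where it carries antigen receptors to the lysosome and limits their signalling. LAPTM4A and LAPTM4B are made in many tissues, LAPTM4A in connection with glycolipid synthesis and drug transporters, and LAPTM4B, often abundant in carcinomas, with the sorting of the EGF receptor and the placement of an amino acid transporter on lysosomes.

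The members were taken by symbol, and the table's Ensembl identifiers held all 3 of them among 63677. The family was chosen by its measured levels in CR3 cells against the other groups, so every comparison of CR3 with another group is given here for them as a description, with no test. All 3 passed the filter of at least 10 reads in at least 3 libraries and are among the 15401 genes tested, but LAPTM5 passed it through the CR3 libraries alone and so had to differ.

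The cells were HCT116, an established human colorectal cancer line, sequenced as polyA RNA in 12 libraries, 3 for each of 4 constructs. The CR3 group carried a peptide described by the submitters as disturbing condensates, which are membraneless assemblies of protein and RNA. The scramble and reverse groups carried variants of it, and the mCherry group carried a fluorescent protein as the control. Every group was grown in DMEM with fetal calf serum and given doxycycline at 1 ug/ul, written with a time of 48 and no unit, so none was untreated. The design text calls the cells clones. Whether a group is 1 clone is not stated, so the construct and the clone cannot be told apart, and nothing says that the libraries of a group came from separate cultures, so p-values measure only the spread between these libraries.

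Each library held 17418119 to 23548417 reads on genes. Values below are normalized reads, meaning reads over the size factor of each library, given as mean ± SD of 3 libraries unless stated, and levels of different genes are compared per kilobase of annotated exon. Colon epithelial markers were plentiful in every group, with EPCAM at 4311 ± 92.4 normalized reads in CR3, 5117 ± 199 in scramble, 5043 ± 180 in reverse and 5081 ± 319 in mCherry, although VIL1, LGALS4 and CDX1 were near 0. In CR3, EPCAM, KRT8, KRT18 and KRT19 were lower than in each other group by limma (adjusted p = 0.00167, 0.00509, 0.00141 and 0.000298 against mCherry). Of 7 such markers tested, 3 were called in none of these comparisons, and 11.2% of all genes were lower in each of them. Under upper-quartile scaling KRT19 alone kept its call against mCherry, and 0 of the list were lower than in reverse. With library totals KRT8 and KRT18 lost the call against reverse (adjusted p by limma 0.14 and 0.068), and KRT8 that against scramble (0.053). KRT8 lost its call against reverse without CR3 library 2 (adjusted p = 0.069), reverse library 2 (0.059) or reverse library 3 (0.077).

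LAPTM5 (ENSG00000162511) lies on the minus strand of chromosome 1 at 30732469 to 30757820 on GRCh38, and its coding transcript has 8 exons and 262 codons, the stop left out. The stretch just before its start is shown because LAPTM5 was the member whose level differed most between groups. These 204 bases come from RefSeq (GRCh38.p14, chr1:30757821-30758024, minus strand) and lie upstream of the starts of both RefSeq and GENCODE. Capitals mark CG pairs.
LAPTM5 upstream: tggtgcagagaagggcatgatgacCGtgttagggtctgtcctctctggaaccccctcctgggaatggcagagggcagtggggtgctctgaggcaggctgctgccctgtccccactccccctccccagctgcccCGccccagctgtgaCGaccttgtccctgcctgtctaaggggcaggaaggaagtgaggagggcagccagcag
The stretch held 3 CG pairs at a GC content of 65.2%. In a window of 250 bases before the RefSeq start, LAPTM5 had 3 CG pairs, a number that 29.3% of 35116 RefSeq promoters did not exceed, and the median promoter had 11. The 250-base window of LAPTM4A, also placed by its RefSeq start, had 18 CG pairs, and 36.8% of promoters had as many or more. That window falls within chr2:20051579-20051878. It therefore lies inside the gene as GENCODE annotates it, whose start is at 20052028. No window of LAPTM4B is described. Of 3 motifs searched on both strands, the letters GGAAGT are a form of the core that ETS factors bind. They occurred in the LAPTM5 window and not in the LAPTM4A window, and in 19.5% of all promoters. CACGTG, the core of MiT/TFE sites, occurred in neither window and in 6.34% of promoters, and TATAAA occurred in neither and in 10.7%. These letter matches are a description of the windows and not of binding.

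LAPTM5 RNA was abundant in CR3 cells and close to absent from the rest. The read counts were 1405, 1590 and 1196 in the 3 CR3 libraries, against 2, 1 and 2 in scramble, 1, 0 and 1 in reverse and 0, 0 and 1 in mCherry. As read here, every CR3 library lay above every other library. Read without the group labels, CR3 library 2 would hold 159 reads and scramble libraries 1 and 3 would hold 200 each, so CR3 and scramble would overlap. Over all tested genes, the CR3 libraries lay wholly above those of mCherry in 18.7%, of scramble in 25.3% and of reverse in 22.5%, and since the gene was chosen for this pattern nothing is read from those shares.

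In normalized reads LAPTM5 stood at 1313, 1395 and 1271 in CR3, a mean of 1326 ± 62.9 with a coefficient of variation of 4.74%. The means were 1.54 ± 0.527 in scramble, 0.647 ± 0.565 in reverse and 0.356 ± 0.616 in mCherry. The count of CR3 library 2 was chosen to lie with its group, so the spread among the CR3 libraries is partly set by that choice. The 9 others spanned 0 to 1.92 normalized reads. Summed over libraries, 4191 reads in CR3 stood against 5 in scramble, 2 in reverse and 1 in mCherry. With so few reads in the other groups the ratio is known only by order of size. It was 865 over scramble (exact 95% counting interval 370 to 2666), 2028 over reverse (561 to 16752) and 4101 over mCherry (736 to 162019), and these intervals cover counting error only. A bulk library cannot tell more LAPTM5 RNA per cell from more cells that contain it.

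Per kilobase, LAPTM5 reached 405 ± 19.2 normalized reads in CR3, above 84.7% of the tested genes that have a symbol, where it ranked 2301 of 15058. The corresponding levels were 0.469 in scramble, 0.198 in reverse and 0.109 in mCherry. As CPM, the CR3 libraries held 70.1, 75.2 and 68.7.

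The deposited table had lost the decimal marks of its values, and the certainty of these counts follows from how each was read. The digits of CR3 libraries 1 and 3 allow no smaller whole number than 1405 and 1196. Those of CR3 library 2 allow 159, and 1590 was taken because it lies with the other libraries of the group. The 3 zeros, in reverse library 2 and mCherry libraries 1 and 2, are certain, and the single reads of scramble library 2 and reverse library 3 kept their mark. The low counts of scramble libraries 1 and 3, of reverse library 1 and of mCherry library 3 rest on the likelihood. Read without the group labels, those 4 would be 200, 200, 100 and 100 reads and CR3 library 2 would be 159. The log2 ratios of CR3 to scramble, reverse and mCherry, on log2(normalized reads + 1), were 9.05, 9.72 and 10.02 as reported and would be 3.93, 6.72 and 7.02 under that reading.

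Among tested genes, 331 had at most 8 reads over the 9 libraries without CR3, the number that LAPTM5 had. By mean CR3 level LAPTM5 ranked first of these genes, both in normalized reads and per kilobase. The next were LUZP4 at 393.1, TLE4 at 274.1 and SPART at 239.2 normalized reads in CR3, and the median of the set was 32.3. The set was formed from low values in those 9 libraries, so it holds genes that passed the filter through CR3, and the order is a description.

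LAPTM4A (ENSG00000068697) lies on the minus strand of chromosome 2 at 20032650 to 20052028, with 7 exons and 233 codons, the stop left out. Its CR3 mean lay within 8.75% of every other group mean. It stood at 3432, 3429 and 3091 normalized reads in CR3, at 3250, 2956 and 3193 in scramble, at 3130, 2934 and 3088 in reverse and at 3215, 3201 and 3151 in mCherry. CR3 libraries 1 and 2 were the highest of the 12, while CR3 library 3 fell among the other groups, so CR3 overlapped each of them. The mean was 3317 ± 196 in CR3, 5.88% above scramble (3133 ± 156), 8.75% above reverse (3050 ± 103) and 4.02% above mCherry (3189 ± 33.5).

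LAPTM4B (ENSG00000104341) lies on the plus strand of chromosome 8 at 97775057 to 97853013, and its longest annotated coding transcript has 7 exons and 317 codons, the stop left out. It was lower in CR3 cells by a modest and even amount. It stood at 5892, 6160 and 5898 normalized reads in CR3, at 7282, 7609 and 7177 in scramble, at 7693, 6974 and 7530 in reverse and at 7045, 7230 and 6931 in mCherry. The highest CR3 library lay below the lowest of the 9 others. The CR3 mean of 5983 ± 153 differed by -18.7% from scramble (7356 ± 225), by -19.1% from reverse (7399 ± 377) and by -15.4% from mCherry (7069 ± 151). On the log2 scale the differences were -0.30, -0.31 and -0.24 against scramble, reverse and mCherry (SE 0.045 each). They were -0.14, -0.15 and -0.09 under upper-quartile scaling, which moved the median of all genes up by 0.17, 0.16 and 0.15. Over all tested genes, the CR3 libraries lay wholly below scramble in 24.4% of tested genes, below reverse in 22.1% and below mCherry in 18.8%, and the rule used these contrasts, so nothing is read from the shares.

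**Figure D1:**
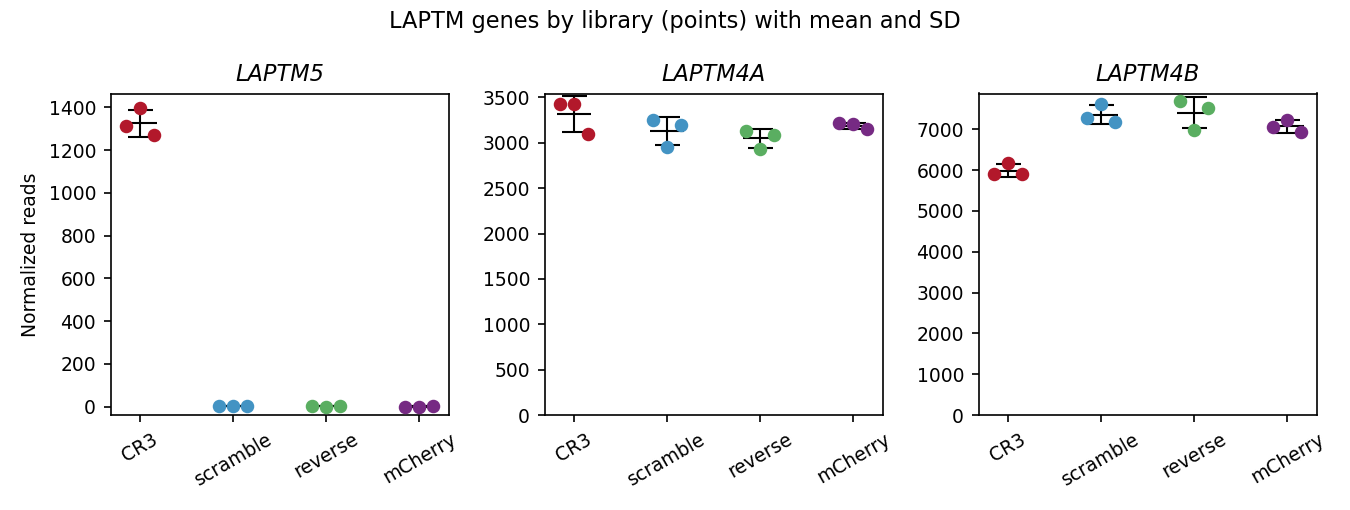
Normalized reads of LAPTM5, LAPTM4A and LAPTM4B on linear axes, with 1 point per library and a bar at the mean ± SD of each group of 3. As read with the group labels, LAPTM5 lies between 1271 and 1395 in CR3 and under 2 elsewhere. LAPTM4A overlaps between CR3 and every other group, and all CR3 libraries of LAPTM4B lie under the 9 others.

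With the size factors used here, the per-kilobase levels of the 3 genes together changed little. The family sum was 3981 ± 148 normalized reads per kilobase in CR3, 3911 ± 33.0 in scramble, 3882 ± 171 in reverse and 3850 ± 59.6 in mCherry. This sum depends on the scaling and was not taken under another. With upper quartiles the log2 differences of CR3 from scramble, reverse and mCherry were 0.24, 0.27 and 0.21 for LAPTM4A. Those of LAPTM4B were -0.14, -0.15 and -0.09. The makeup of the sum, which does not depend on the size factor, differed. As read with the group labels, LAPTM5 made up 10.2% ± 0.175 of the sum in CR3 libraries and at most 0.0148% in any other library. That SD is partly set by the choice of 1590 reads in CR3 library 2. Read without the labels, that library would hold 159 reads and scramble libraries 1 and 3 would hold 200 each. The LAPTM5 shares of CR3 and scramble would then overlap. LAPTM4B made up 47.0% in CR3, 58.8% in scramble, 59.6% in reverse and 57.4% in mCherry, and LAPTM4A 42.8%, 41.2%, 40.4% and 42.6% in that order of groups.

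The ratio of LAPTM4B to LAPTM4A within a library does not depend on the size factor. Per kilobase it was 1.10 ± 0.0586 in CR3, 1.43 ± 0.116 in scramble, 1.48 ± 0.0257 in reverse and 1.35 ± 0.0223 in mCherry. The CR3 libraries ran from 1.04 to 1.16 and the 9 others from 1.33 to 1.57, with no overlap. By level per kilobase the order in CR3 was LAPTM4B (1872), LAPTM4A (1705) and LAPTM5 (405), and in the other groups LAPTM4B (2301 in scramble, 2314 in reverse, 2211 in mCherry) again stood above LAPTM4A (1610, 1568 and 1639 in that order). LAPTM4B and LAPTM4A were closer to each other in CR3 than in any other group, but LAPTM4B was the higher in all 12 libraries.

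**Figure D2:**
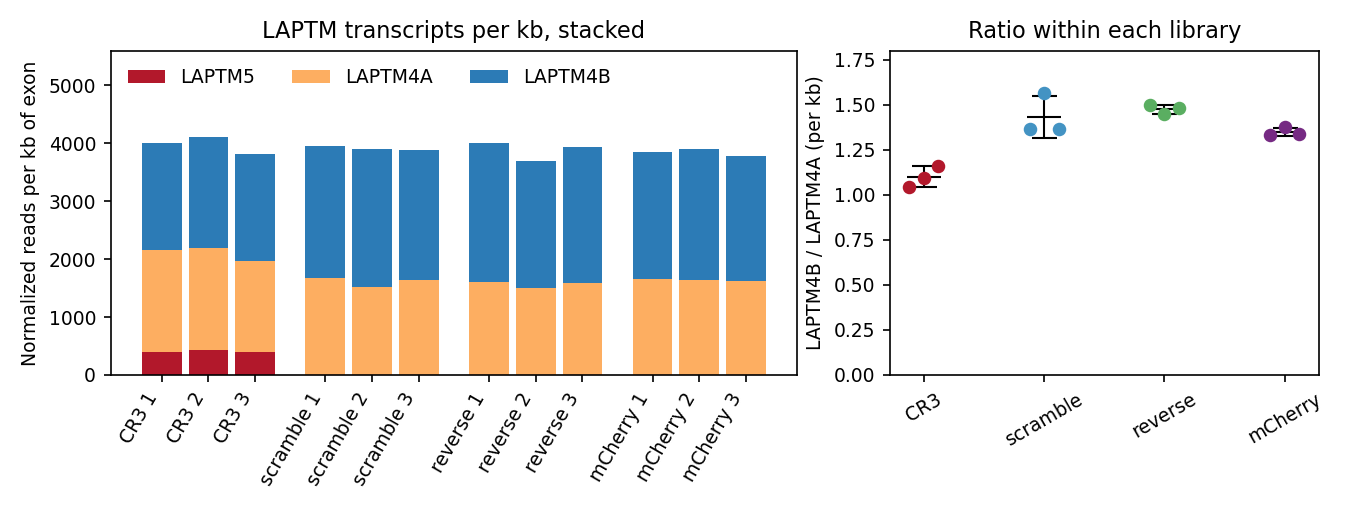
Left, normalized reads per kilobase of exon of the 3 genes stacked for each library. Right, the ratio of LAPTM4B to LAPTM4A per kilobase, 1 point per library with the group mean ± SD. With the size factors used here the stack height is similar in all groups. As read with the group labels, LAPTM5 is visible in the CR3 libraries. The ratio is 1.04 to 1.16 in CR3 against 1.33 to 1.57 in the 9 others.

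The comparisons among scramble, reverse and mCherry hold no CR3 library and could be tested. By limma over all genes, 1.53% of genes differed between scramble and mCherry, 0.649% between reverse and mCherry and 0.461% between reverse and scramble, and neither LAPTM4A nor LAPTM4B was among them. LAPTM4A differed by -0.03 on the log2 scale between scramble and mCherry (95% interval -0.13 to 0.08, adjusted p = 0.859), by -0.06 between reverse and mCherry (-0.17 to 0.04, adjusted p = 0.739) and by -0.04 between reverse and scramble (-0.15 to 0.07, adjusted p = 0.904). All reverse libraries of LAPTM4A lay below all mCherry libraries. The share of all genes with such a gap between these groups is not given here, so nothing is read from the gap. LAPTM4B differed by 0.06 between scramble and mCherry (-0.04 to 0.15, adjusted p = 0.597), by 0.06 between reverse and mCherry (-0.03 to 0.16, adjusted p = 0.694) and by 0.01 between reverse and scramble (-0.09 to 0.10, adjusted p = 0.99). At 0 to 2 reads a library, LAPTM5 could not be compared among these 3 groups.

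Reads of overlapping or similar genes were few. LAPTM5 overlaps MIR4420, with 2 reads, both in CR3, and LAPTM4B overlaps the pseudogene AP003357.1, with none. The pseudogene LAPTM4BP1 had 2 reads in all, LAPTM4BP2 had 2, 1, 1 and 0 reads in CR3, scramble, reverse and mCherry, and the divergent transcript LAPTM4A-DT had 1, 2, 0 and 0.

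LAPTM5 is a marker of blood cells, and 30 other blood markers were read beside it. PTPRC, the leukocyte common antigen, the B-cell gene MS4A1 and the signalling genes TYROBP, LCP2 and CD48 had 0 reads in all 12 libraries. Of T-cell genes, CD3E had 0 reads in CR3, 13 in scramble, 0 in reverse and 0 in mCherry. CD2 had 0, 0, 0 and 1 in that order. CD3D went the other way, with 12, 1, 1 and 0 reads, as did IKZF1, with 14, 0, 0 and 1. SPI1, the myeloid and B-cell ETS factor PU.1, had 6 reads over the 3 CR3 libraries, 3 in scramble, 5 in reverse and 3 in mCherry. Of the 30 markers 8 could be tested by limma, and in CR3 3 were higher and 0 lower than in scramble, 4 higher and 1 lower than in reverse and 2 higher and 0 lower than in mCherry (0 lower at an unadjusted p under 0.05 as well, against scramble and mCherry). Of all genes, 19.2%, 16.9% and 14.1% were higher in those comparisons. The count against mCherry was 1 without any 1 CR3 library, when 7 markers pass the filter, so 1 of the 2 passed it through CR3 alone and had to differ. The count against reverse was 2 without CR3 library 1 or 3. Among those higher than in mCherry was CD52, a lymphocyte surface glycoprotein, at 86.9 ± 11.8 normalized reads in CR3, 50.4 ± 6.0 in scramble, 36.1 ± 5.39 in reverse and 47.2 ± 7.77 in mCherry (adjusted p = 0.00215 against mCherry). Summed, the 30 markers reached 538 to 604 normalized reads in CR3, 382 to 452 in scramble, 488 to 548 in reverse and 401 to 457 in mCherry, against 1326 for LAPTM5 alone in CR3. All 30 have a row, and 7 were at 0 in CR3, 8 in scramble, 8 in reverse and 7 in mCherry.

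**Figure D3:**
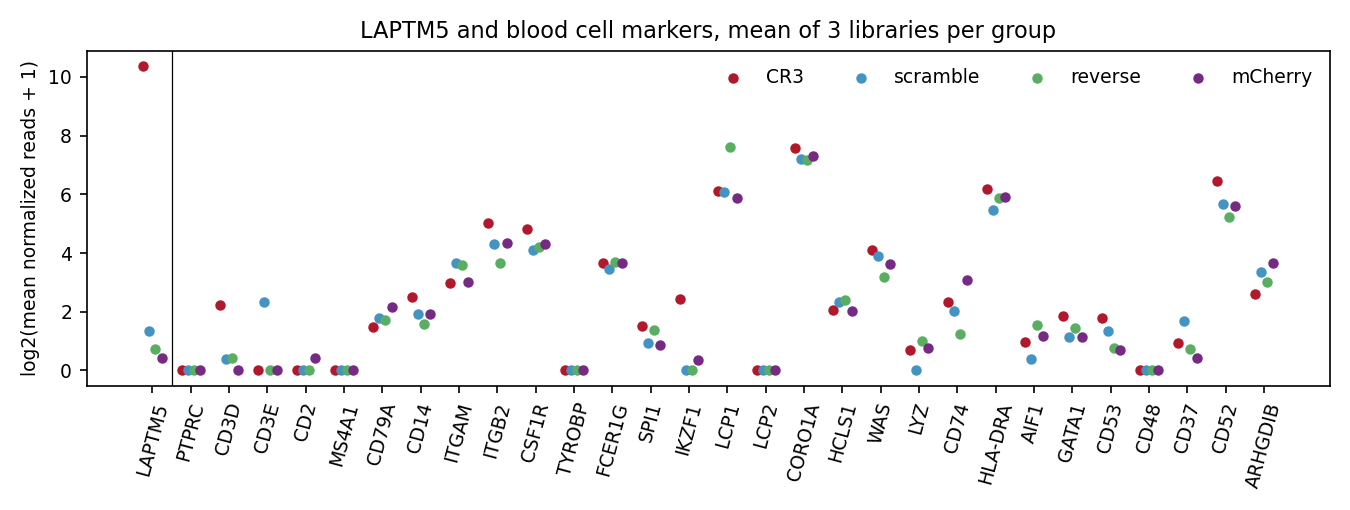
Mean of 3 libraries as log2(normalized reads + 1) for LAPTM5, at the left, and the blood cell markers reported here, with 1 symbol per group. As read with the group labels, LAPTM5 is high in CR3 alone, while PTPRC, MS4A1, TYROBP, LCP2 and CD48 sit at 0 in every group.

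Some markers of other cell types also moved with the CR3 group. Of 11 genes marking embryonic kidney and neuron-like lines, 10 were tested, and 7 were higher in CR3 than in all 3 other groups as read here. Over all genes 11.0% were, but some of the 10, NEFM and CDH2 among them, passed the filter through the CR3 libraries alone and so had to differ. Nothing is read from the 7 beside that share. The 7 include NEFM, a neurofilament, at 148 ± 28.7 normalized reads in CR3, 0.932 ± 0.960 in scramble, 0 in reverse and 0.348 ± 0.603 in mCherry, and CDH2, the neural cadherin, at 130 ± 13.9, 0.312 ± 0.540, 2.27 ± 1.08 and 1.90 ± 0.767 in that order. TUBB2B and LIN28B were called as well. Not all of the list rose. PAX2 averaged 239 normalized reads in CR3, 215 in scramble, 241 in reverse and 246 in mCherry, and MAP2 364, 346, 366 and 408 in that order. Read without group labels, the list held 5 genes higher than in scramble and 2 each than in reverse and mCherry. TUBB2B then differed by 0.02, 0.17 and 0.05 on the log2 scale from scramble, reverse and mCherry (adjusted p by limma 0.953, 0.537 and 0.886), and CDH2 lost its calls against reverse and mCherry (0.105 and 0.0786). Without any 1 CR3 library the filter leaves 5 of the 10 to test and 2 are called higher than in mCherry, since genes read in CR3 alone then have too few libraries. The sum of the 11 ran from 3398 to 3460 normalized reads in CR3, 1290 to 1413 in scramble, 1368 to 1654 in reverse and 1420 to 1859 in mCherry, with 0, 1, 2 and 1 genes at 0 in that order. Of 11 mesenchymal markers 4 were tested and 2, VIM and ACTA2, were higher in CR3 than in all 3 other groups as read here. TAGLN had its lowest mean in CR3, at 55.0 normalized reads, against 59.9 in scramble, 65.1 in reverse and 68.2 in mCherry. VIM averaged 764 ± 31.1 normalized reads in CR3 and 64.8 to 97.4 in the others as read here, and its log2 difference would be -0.01 against scramble and -0.35 against mCherry with values read without group labels. ACTA2 then lost all 3 calls, at 0.69, 0.51 and 0.51 against scramble, reverse and mCherry (adjusted p by limma 0.4, 0.549 and 0.575), and the list held 1 gene higher than in scramble, 1 higher than in reverse, and 0 higher and 1 lower than in mCherry. The mesenchymal sum was 2110 to 2427 in CR3, 998 to 1039 in scramble, 941 to 1157 in reverse and 986 to 1238 in mCherry, with 1, 3, 1 and 2 genes at 0. The part of these marker shifts in the LAPTM levels was not tested.

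Genes that vary like each member over the 12 libraries were ranked by Pearson r of log2(normalized reads + 1) among 13567 genes averaging at least 20 normalized reads, as a description in which the step between CR3 and the rest carries most of the likeness. For LAPTM5 these were LUZP4 (r = 0.994), PNMA8A (0.994), SV2A (0.993), CDHR1 (0.992) and LINC02381 (0.992), all low in the 9 other libraries. PNMA8A averaged 194 normalized reads in CR3, 0.320 in scramble and 0 in reverse and mCherry, and SV2A, a synaptic vesicle glycoprotein, averaged 261 in CR3, 5.86 in scramble, 5.34 in reverse and 4.73 in mCherry. In all, 9 genes had r above 0.99 with LAPTM5 and 402 above 0.9. For LAPTM4B they were RFFL (0.991), ACAT1 (0.984), MFHAS1 (0.976), VSIG10 (0.974) and PATL1 (0.965), each lower in CR3, with 345 genes above 0.9. ACAT1, a mitochondrial acetyl-CoA acetyltransferase, averaged 1406 normalized reads in CR3, 1798 in scramble, 1753 in reverse and 1688 in mCherry. For LAPTM4A no gene exceeded 0.9, and the closest were LEPROT (0.892), ENSG00000138293 (0.867), PDZD11 (0.844), ENSG00000215447 (0.842) and SMYD3 (0.840). Between members r was -0.91 for LAPTM5 and LAPTM4B, 0.57 for LAPTM5 and LAPTM4A and -0.52 for LAPTM4A and LAPTM4B.

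The genes around each member were taken by position, the 2 nearest coding genes on each side. The nearest coding gene of each member is a matrilin, a cartilage matrix protein, MATN1 beside LAPTM5, MATN3 beside LAPTM4A and MATN2 beside LAPTM4B, and LAPTM5 and LAPTM4A each also have a syndecan gene on their other side. Of the 12 neighbours 10 were tested by limma. In CR3, 4 were higher and 3 lower than in scramble, where 37.9% of all genes were called, 3 higher and 2 lower than in reverse, where 33.7% were, and 2 higher and 2 lower than in mCherry, where 28.7% were. MATN3, counted as higher in all of these comparisons, passed the filter through the CR3 libraries alone and so had to differ. It drops below the filter when a CR3 library is left out, which leaves 1 higher than in mCherry. Against reverse, leaving out CR3 library 1 leaves 1 higher, and leaving out CR3 library 2 gives 4 lower.

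No coding neighbour of LAPTM5 had a difference of its size. MATN1, 8.9 kb away, averaged 3.98 normalized reads in CR3, 2.80 in scramble, 2.36 in reverse and 6.26 in mCherry and was too low to test. SDC3, a syndecan 111.6 kb away, averaged 3199 ± 169 in CR3, 3141 ± 58.8 in scramble, 3008 ± 126 in reverse and 3214 ± 191 in mCherry (adjusted p = 0.947 against mCherry). The receptor phosphatase PTPRU, 1405.7 kb away on the other side, was higher in CR3 at 1255 ± 57.2 normalized reads, against 850.5 ± 4.35 in scramble, 938.5 ± 31.8 in reverse and 929 ± 143 in mCherry (adjusted p = 0.000691 against mCherry).

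Beside LAPTM4A, MATN3, 20 kb away, had 48 reads in CR3, a mean of 15.3 ± 2.32 normalized reads, and 0 in the 9 other libraries, at least 5.27-fold higher over a floor of 3 reads per library. SDC1, a syndecan of epithelial cells 148.8 kb away, was lower in CR3 at 721 ± 44.9 normalized reads, against 1072 ± 24.5 in scramble, 1060 ± 19.5 in reverse and 964 ± 77.5 in mCherry (adjusted p = 8.89e-05 against mCherry). WDR35, 42.5 kb away, and PUM2, 196.7 kb away, passed no comparison.

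Beside LAPTM4B, MATN2, 15.8 kb away, averaged 367 ± 24.5 normalized reads in CR3, 270 ± 24.8 in scramble, 294.5 ± 9.43 in reverse and 328 ± 39.6 in mCherry, and was higher in CR3 than in scramble and reverse (adjusted p = 0.0023 and 0.0241). The call against reverse was lost without CR3 library 1 (adjusted p = 0.088), reverse library 2 (0.075) or reverse library 3 (0.056). Against mCherry its adjusted p was 0.25. RPL30, a ribosomal protein gene 171.8 kb away, was lower in CR3 by 0.41, 0.38 and 0.33 on the log2 scale than in scramble, reverse and mCherry (adjusted p = 1.46e-06, 3.87e-06 and 1.93e-05). MTDH, 46.3 kb away, had differences of -0.15, -0.15 and -0.12 (adjusted p = 0.0461, 0.0541 and 0.137), and the first became 0.01 under upper-quartile scaling and lost its call without CR3 library 1 (0.084), CR3 library 3 (0.115) or any scramble library (0.075 to 0.119). TSPYL5, 497.1 kb away, had no read.

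**Figure D4:**
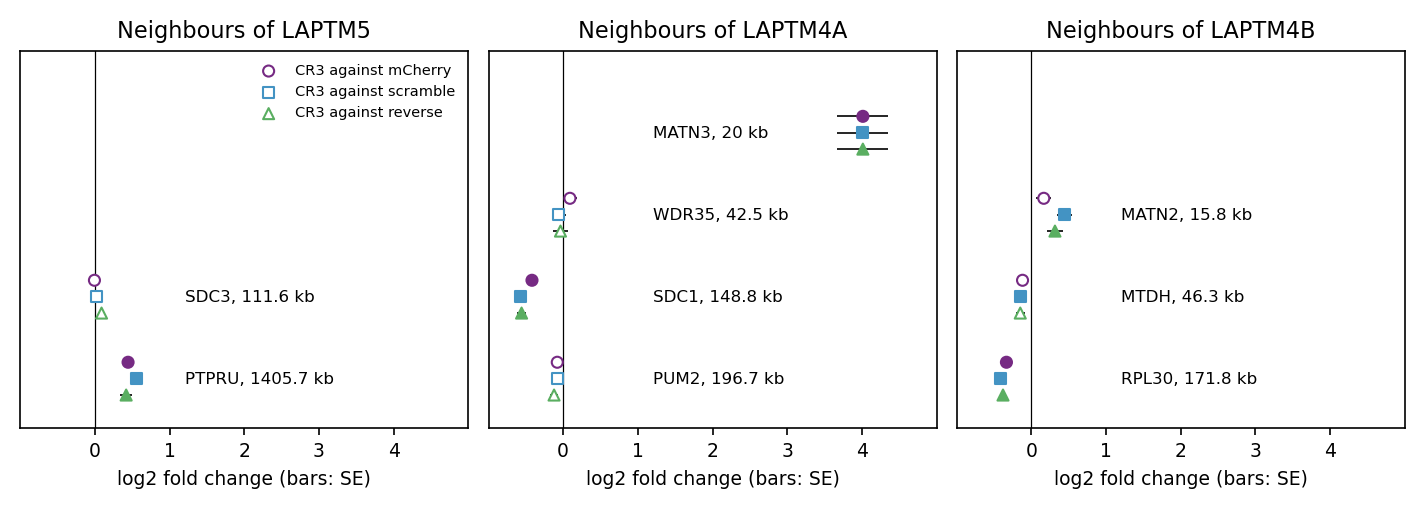
Log2 fold change of CR3 over mCherry, scramble and reverse with its SE for the tested coding neighbours reported here, by distance in kb. Filled symbols have an adjusted p under 0.05. MATN3, SDC1, RPL30 and PTPRU are called in all 3 comparisons, and SDC3, WDR35 and PUM2 in none. MATN3 passed the filter through the CR3 libraries alone, so its calls were set by the filter.

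The lysosome as a whole was then read through lists of genes other than the members. Lysosomal membrane proteins, hydrolases with their activators, and subunits of the V-ATPase that acidifies the lysosome make up 94 genes, of which 90 were tested by limma. In CR3, 48 of these were higher and 5 lower than in scramble (53.3% higher, against 19.2% of all genes, of which 18.7% were lower), 51 higher and 2 lower than in reverse (56.7%, against 16.9%, with 16.8% lower) and 36 higher and 5 lower than in mCherry (40.0%, against 14.1%, with 14.6% lower). In all 3 comparisons 31 were higher and 2 lower, 34.4% and 2.22%, where the shares over all genes were 11.0% and 11.2%. The median log2 difference was 0.21, 0.22 and 0.18 against scramble, reverse and mCherry, where the median of all genes was 0.01, 0.01 and 0.00. Most of the shifts were small. With scaling by library totals, 63, 65 and 58 were higher (70.0%, 72.2% and 64.4%), where 29.2%, 26.4% and 23.1% of all genes were. Of all genes called in CR3 against mCherry, the higher share was 73.8% under that scaling and 87.0% under upper-quartile scaling, against 49.1% as reported. Of the lysosomal genes called in that comparison, the higher share was 95.1%, 95.7% and 87.8% in the same order.

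Of 28 lysosomal membrane genes tested, 14 were higher in CR3 than in scramble, 14 than in reverse and 11 than in mCherry, and 0 were lower in any of these by limma, also at an unadjusted p under 0.05. OSTM1, the partner of the lysosomal chloride transporter, averaged 815 ± 40.9 normalized reads in CR3, 607 ± 19.3 in scramble, 627 ± 53.6 in reverse and 618 ± 53.4 in mCherry (adjusted p = 0.000818 against mCherry). LMBRD1, which exports vitamin B12 from the lysosome, averaged 733 ± 22.5 in CR3, 531 ± 17.0 in scramble, 590 ± 25.8 in reverse and 573 ± 28.8 in mCherry (adjusted p = 0.00047). GLMP and the ion channel TMEM63A were also called in all 3 comparisons, with log2 differences of 0.38 and 0.37 against mCherry. LAMP1, the most used lysosome marker, averaged 5346 ± 55.1 in CR3, 5314 ± 99.4 in scramble, 5302 ± 74.9 in reverse and 5482 ± 45.9 in mCherry and passed no comparison.

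Of 42 hydrolases and activators, CR3 had 25 higher and 5 lower than scramble, 26 and 2 than reverse and 17 and 4 than mCherry. The higher shares were 59.5%, 61.9% and 40.5%, beside 19.2%, 16.9% and 14.1% of all genes. The lower shares were 11.9%, 4.76% and 9.52%, beside 18.7%, 16.8% and 14.6%. With upper-quartile scaling 31 were higher than in mCherry, where 31.3% of all genes were. ARSA, which degrades sulfatide, averaged 363 ± 27.7 normalized reads in CR3, 181 ± 3.25 in scramble, 170 ± 18.3 in reverse and 192 ± 23.4 in mCherry (adjusted p by limma 9.64e-06 against mCherry). SMPD1, the acid sphingomyelinase, averaged 1201 ± 92.3 in CR3, 794 ± 56.9 in scramble, 740 ± 45.5 in reverse and 761 ± 68.9 in mCherry (6.25e-06). CTSF, a cysteine cathepsin, stood at 67.1 ± 16.3 in CR3, 0 in scramble and reverse and 0.561 ± 0.971 in mCherry. It passed the filter through the CR3 libraries alone, so its place among the genes called higher, here and over the joined lists, was set by the filter. CTSV, another cathepsin, went the other way and was lower in CR3 at 444 ± 29.4, against 581 ± 26.5 in scramble, 611 ± 35.2 in reverse and 665 ± 53.8 in mCherry (2.12e-05).

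Of 20 V-ATPase subunits, CR3 had 9 higher and 0 lower than scramble, 11 and 0 than reverse and 8 and 1 than mCherry. At an unadjusted p under 0.05 still 0 were lower than in scramble or reverse. The higher shares were 45.0%, 55.0% and 40.0%, beside 19.2%, 16.9% and 14.1% of all genes, of which 18.7%, 16.8% and 14.6% were lower. With upper-quartile scaling 19, 19 and 16 were higher, where 37.1%, 34.0% and 31.3% of all genes were. ATP6V0A1, a membrane subunit, averaged 3436 ± 26.2 normalized reads in CR3, 2464 ± 33.6 in scramble, 2543 ± 149 in reverse and 2557 ± 61.1 in mCherry (adjusted p by limma 1.55e-06 against mCherry). The accessory subunit ATP6AP1 and the subunit ATP6V0D1 were 0.35 and 0.25 higher against mCherry on the log2 scale. The subunit lower than in mCherry was ATP6V0A4, a kidney form of the same subunit, at 10.2 ± 4.0 in CR3, 3.62 ± 2.22 in scramble, 3.94 ± 2.05 in reverse and 44.1 ± 10.2 in mCherry. It was called higher against scramble and reverse, where the differences of 1.30 and 1.18 became -0.61 and -0.76 when values were read without group labels. Leaving out CR3 library 2 or 3 ended both calls (adjusted p = 0.08 to 0.133), as did scramble library 1 or 2 for the first (0.08 and 0.051) and reverse library 1 or 3 for the second (0.134 and 0.064).

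**Figure D5:**
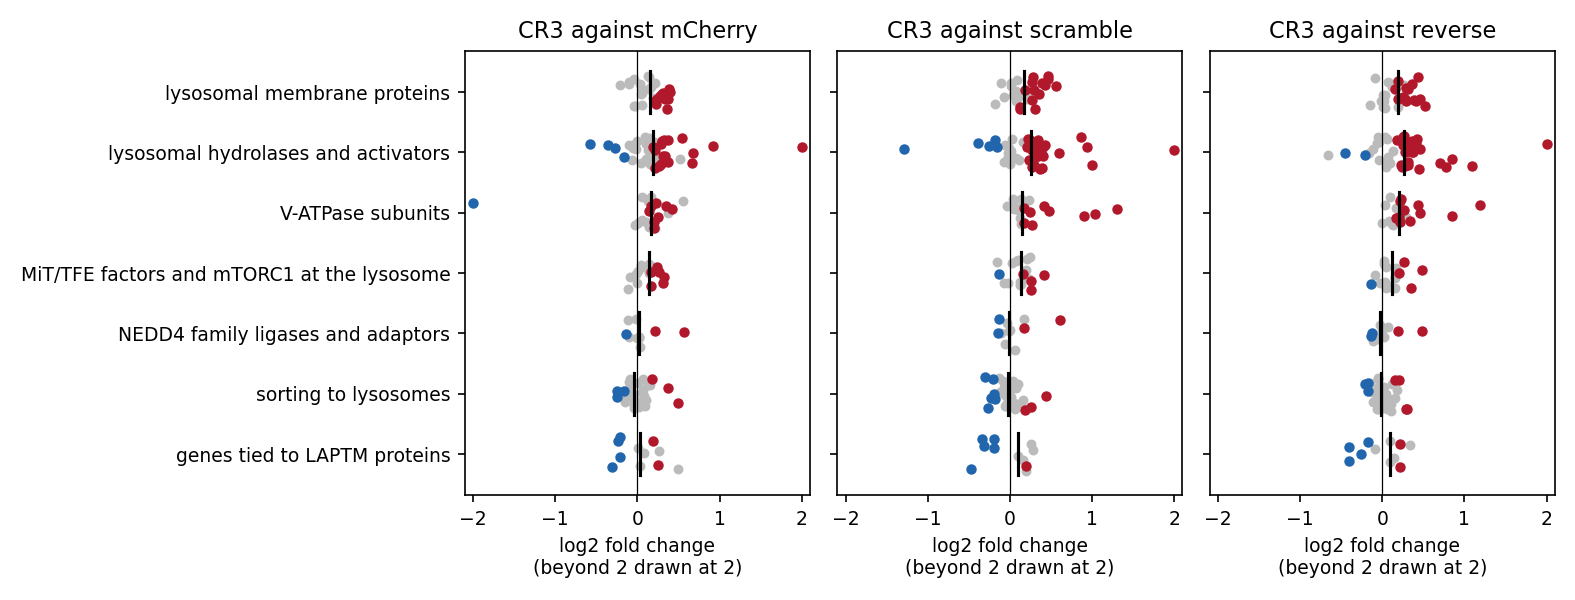
Log2 fold change of CR3 over mCherry, scramble and reverse for each tested gene of the lists, with 1 point per gene. The lysosomal membrane, hydrolase and V-ATPase lists lie mostly to the right of 0, with medians of 0.15 to 0.26 over the 3 comparisons.

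Of 18 genes of the MiT/TFE factors, which switch on lysosomal genes, and of mTORC1 at the lysosome, CR3 had 4 higher and 1 lower than scramble, 4 and 1 than reverse and 6 and 0 than mCherry. Over all genes 19.2%, 16.9% and 14.1% were higher and 18.7%, 16.8% and 14.6% lower. With upper-quartile scaling 13, 13 and 14 of the list were higher, with library totals 13, 8 and 9, and 3 were higher than in mCherry with the replicate block or with only the 2 groups compared. The shares of all genes higher were 37.1%, 34.0% and 31.3% with upper quartiles and 29.2%, 26.4% and 23.1% with totals. TFE3 was called in all 3 comparisons, at 984 ± 113 normalized reads in CR3, 732 ± 24.6 in scramble, 700 ± 22.4 in reverse and 784 ± 71.0 in mCherry (adjusted p by limma 0.0059 against mCherry). FNIP2, RRAGB and RRAGD were called against mCherry (0.26, 0.32 and 0.17 on the log2 scale), and each lost that call without mCherry library 1 (adjusted p = 0.067, 0.126 and 0.11) or CR3 library 3 (0.075, 0.081 and 0.061). RRAGB also lost it without CR3 library 1 (0.056), and RRAGD without CR3 library 1 (0.118) or 2 (0.084) or mCherry library 3 (0.055). The list held 2 genes higher than in mCherry without mCherry library 1 and 1 without CR3 library 3. It held 2 higher than in scramble without CR3 library 3 and 2 higher than in reverse without reverse library 1 or 2. TFEB had differences of 0.23, 0.16 and 0.19 against scramble, reverse and mCherry and passed none.

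Of 11 NEDD4 ligases and adaptors, CR3 had 2 higher and 2 lower than scramble and than reverse, and 2 higher and 1 lower than mCherry. These are 18.2% higher in each comparison and 18.2%, 18.2% and 9.09% lower, beside 19.2%, 16.9% and 14.1% higher and 18.7%, 16.8% and 14.6% lower over all genes. With upper-quartile scaling 5 were higher than in scramble, 4 than in reverse and 3 than in mCherry, and 0 were lower in any of these. Under that scaling 37.1%, 34.0% and 31.3% of all genes were higher and 7.07%, 5.97% and 4.69% lower. The lower count fell to 0 against scramble without CR3 library 1 or 3 or scramble library 1 or 3, against reverse without CR3 library 1 or 3 or any reverse library, and against mCherry without CR3 library 1 or 3 or mCherry library 2 or 3. HECW2, a ligase, averaged 191 ± 19.4 normalized reads in CR3, 125 ± 12.3 in scramble, 136 ± 10.9 in reverse and 128 ± 12.2 in mCherry (adjusted p by limma 0.00275 against mCherry), and the adaptor NDFIP2 was 0.22 higher against mCherry (adjusted p = 0.00904, and 0.052 without mCherry library 1). SMURF2 was 0.13 lower against mCherry (adjusted p = 0.041), a call lost without mCherry library 2 or 3 or CR3 library 1 or 3 (0.079 to 0.151), and its difference became 0.02, in the other direction, under upper-quartile scaling. NEDD4, ITCH and WWP2 passed no comparison, with log2 differences from mCherry of 0.02, -0.12 and 0.02.

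Of 33 genes that sort cargo to lysosomes, CR3 had 3 higher and 6 lower than scramble, 4 and 3 than reverse and 3 and 3 than mCherry, shares of 9.09% to 18.2%, where 14.1% to 19.2% of all genes were called in each direction. With upper-quartile scaling CR3 had 12 higher and 1 lower than scramble, 15 and 0 than reverse and 10 and 0 than mCherry. Under that scaling 37.1%, 34.0% and 31.3% of all genes were higher and 7.07%, 5.97% and 4.69% lower. Without mCherry library 3, 5 were lower than in mCherry. IGF2R, the mannose 6-phosphate receptor that delivers hydrolases, averaged 6543 ± 786 normalized reads in CR3, 4795 ± 208 in scramble, 5272 ± 338 in reverse and 4643 ± 439 in mCherry (adjusted p by limma 0.000157 against mCherry). Of the ESCRT machinery, VPS25 was 0.38 higher and SNF8 and STAM 0.25 lower against mCherry on the log2 scale, although SNF8 and STAM lost the call under upper-quartile scaling.

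A further list held 13 cargoes and partners described for LAPTM proteins, of which 11 were tested. In CR3, 1 was higher and 5 lower than in scramble, 2 and 4 than in reverse and 2 and 4 than in mCherry, beside the same shares of all genes, 14.1% to 19.2% in each direction. With upper-quartile scaling 4 were higher and 1 lower than in scramble, 3 and 2 than in reverse and 4 and 0 than in mCherry. Under that scaling 37.1%, 34.0% and 31.3% of all genes were higher and 7.07%, 5.97% and 4.69% lower. EGFR, whose sorting LAPTM4B hinders, averaged 1412 ± 117 normalized reads in CR3, 1788 ± 92.4 in scramble, 1872 ± 107 in reverse and 1753 ± 126 in mCherry (adjusted p by limma 0.00239 against mCherry). SLC7A5, the amino acid transporter that LAPTM4B brings to lysosomes, was lower in CR3 at 6297 ± 295, against 8765 ± 264 in scramble, 8372 ± 626 in reverse and 7283 ± 169 in mCherry (adjusted p = 0.0059). B4GALT5, which makes lactosylceramide, averaged 6672 ± 55.6 in CR3, 7639 ± 95.3 in scramble, 7559 ± 199 in reverse and 7871 ± 114 in mCherry (adjusted p = 0.000128). RIPK1, a signalling kinase on the LAPTM5 side of the list, was 0.25 higher against mCherry (adjusted p = 0.00211), and the list held 1 gene higher than in mCherry without mCherry library 3, CR3 library 1 or CR3 library 3. EGFR, SLC7A5 and B4GALT5 each lost the call against mCherry under upper-quartile scaling.

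Among scramble, reverse and mCherry, the MiT/TFE, NEDD4 and sorting lists had 0 calls by limma, with 0 to 2 genes in each direction at an unadjusted p under 0.05. The list of cargoes and partners had 2 of 11 genes higher in scramble than in mCherry (18.2%, where 1.53% of all genes were called in either direction), SLC7A5 and SLC3A2. Over the membrane, hydrolase and V-ATPase lists, 1 gene was higher and 1 lower in scramble than in mCherry, 0 higher and 1 lower in reverse than in mCherry, and 0 of 90 were called in reverse against scramble by limma, where 2 were higher and 2 lower at an unadjusted p under 0.05. At that unadjusted p, 4 were higher and 11 lower in scramble than in mCherry, and 2 higher and 10 lower in reverse than in mCherry. The shares of all genes at an unadjusted p under 0.05 are not given here, so nothing is read from these counts.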

How the data were processed

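PolyA RNA was sequenced in 12 libraries, 3 per group, with groups read from titles. The submitters' processing notes name GRCh38, STAR, Salmon, featureCounts, DESeq2 and edgeR, and FastQC, MultiQC, Trim Galore and GATK. Tool versions, annotation release and strand setting are unstated in the sources used here. The deposited numbers are gene counts that the authors divided by a size factor per library, as found from the values, and the decimal mark was lost from values of 1 or more, while 18138 smaller values kept it.

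The worth of 1 read was found in each library, and all 265152 non-zero values were multiples of it by a whole number, up to a power of 10 (100% within a relative 1e-07). The power was chosen per gene by a negative binomial likelihood that uses the group labels. In 0.755% of values another power came within a likelihood ratio of 20, and the 769 filtered genes with such a value were left out. Of 1500 kept marks that were hidden, all on values of 1 read, 97.6% were read correctly. Larger counts were not covered by that check. Library totals then ran from 17418119 to 23548417 reads.

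A count test had been planned if the values were counts. It was not used, as the table holds scaled reads, although whole reads were restored from them. Instead limma 3.58.1 (R 4.3.3) was run with its trend option on log2(normalized reads + 1), fitted to 4 groups and 12 libraries for genes with at least 10 reads in at least 3 libraries (15401 tested), with Benjamini-Hochberg adjustment within each comparison, called under 0.05, two-sided. Fold changes on this scale understate those of low genes. The procedure was run on simulated data drawn with the spread that the likelihood assumes, and the outcome is not given here. Its fold changes were far smaller than that of LAPTM5, so it does not cover differences of that size. Rebuilding and tables used Python 3.11.15 with scipy 1.17.1. Symbols, lengths and positions came from GENCODE release 29 on GRCh38, with a gene name table for the rest, and matched 52526 of 63677 identifiers. The promoter sequence came from RefSeq (GRCh38.p14).

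The members and lists were chosen with earlier results of these data known. Named genes were the members, up to 4 called genes per list by smallest adjusted p against mCherry, the 2 nearest coding genes on each side and the 5 genes most like each member. LAMP1, TFEB, NEDD4, ITCH and WWP2, the markers named at 0, and LUZP4, TLE4 and SPART as near-silent genes were named after their values were seen. So were CD3D, IKZF1, PAX2, MAP2 and TAGLN. Of the genes picked by position or as markers, 2 are not reported here by name, though list counts and sums include them. Replicate numbers did not pair libraries. Alternatives were library totals, upper quartiles, pseudocounts of 0.5 and 5, other filters, values read without group labels, a fit on the compared groups, a replicate block and leaving out each library.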

Additional observations from a re-analysis of the deposited data

How the results depend on the processing

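The LAPTM5 ratio depended on low counts. Its log2 value against scramble, reverse and mCherry was 9.38, 10.34 and 10.82 with a pseudocount of 0.5, 7.67, 7.88 and 7.96 with a pseudocount of 5, and 3.93, 6.72 and 7.02 with values read without group labels. Leaving out each library in turn gave 8.87 to 9.17, 9.40 to 9.91 and 9.85 to 10.37. LAPTM4A against the same groups was 0.17, 0.21 and 0.14 with library totals and 0.24, 0.27 and 0.21 with upper quartiles, and 0.04 to 0.13, 0.09 to 0.17 and 0.03 to 0.11 without single libraries. LAPTM4B was -0.21, -0.22 and -0.15 with totals and -0.14, -0.15 and -0.0868 with upper quartiles, and -0.32 to -0.27, -0.35 to -0.28 and -0.26 to -0.22 without single libraries. These scalings moved the median of all genes up by 0.09 to 0.10 and by 0.15 to 0.17.

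Lysosomal genes higher than in mCherry numbered 58 with totals and 66 with upper quartiles, where 23.1% and 31.3% of all genes were. Those lower than in mCherry numbered 3 with either or with the compared groups alone, those lower than in scramble 3 with totals or no filter and 2 with upper quartiles, and those lower than in reverse 1 with either scaling. Without single libraries the higher counts were 39 to 48, 42 to 48 and 28 to 38 against scramble, reverse and mCherry, and the lower counts 3 to 4, 2 to 4 and 3 to 5. Those lower than in mCherry were 3 without mCherry library 2 or CR3 library 2 or 3, those lower than in scramble 3 without CR3 library 2 or scramble library 3, and those lower than in reverse 4 without CR3 library 1. Neighbours higher than in mCherry numbered 4 with upper quartiles, 1 with at least 50 reads and 1 to 2 without single libraries. Those higher than in reverse numbered 5 with either scaling, where 26.4% (totals) and 34.0% (upper quartiles) of all genes were higher. They numbered 1 to 3 without single libraries, and those lower than in reverse 2 to 4. Against scramble, 3 to 4 were higher and 2 to 3 lower.

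Directions turned for SMURF2 with upper quartiles (0.00964, 0.0276 and 0.0190 against scramble, reverse and mCherry) and MTDH against scramble (0.00813). With values read without group labels they turned for ATP6V0A4 against scramble and reverse (-0.61 and -0.76) and VIM against scramble and mCherry (-0.0147 and -0.35). For these changes the cause was not tested. Of 147 results for single named genes, 89 kept call and direction under every alternative run and 58 did not under at least 1.

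Libraries with the same number did not deviate together (correlations -0.125 to 0.0653, against -0.208 to 0.195 for different numbers), so the replicate block is a check only. With the replicate block, 45, 49 and 36 lysosomal genes were higher than in scramble, reverse and mCherry, and LAPTM4A and LAPTM4B passed no comparison among scramble, reverse and mCherry. Depth limits LAPTM5 outside CR3, where 0 to 2 reads a library cannot order the groups.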
